A study of Mus musculus with 6 samples.

Results

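The Tsc22d family was followed here through its 4 mouse genes, Tsc22d1, Tsc22d2, Tsc22d3 and Tsc22d4, chosen by symbol in a table of 37478 transcripts under 13659 gene symbols. They hold 21 transcripts of that table: 10 of Tsc22d1, 1 of Tsc22d2, 4 of Tsc22d3 and 6 of Tsc22d4. The family and the Tsc22d1 isoforms were chosen with the difference between the same PTH and vehicle libraries known, so the members' differences are described below with their errors and without a test.

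The cells were MC3T3-E1 subclone 4, an osteoblast-like line from mouse calvaria, given PTH(1-34), the active amino-terminal fragment of parathyroid hormone, or vehicle, with 3 libraries of bulk RNA in each group. The time of treatment is uncertain, since the sample characteristics give 30 min and the treatment protocol gives 2 h for both groups. Nothing in the labels ties the libraries of a group to separate cultures, so p-values measure the spread between libraries, which may be technical. The line is a single subclone, and in bulk RNA a higher level per cell and a larger number of expressing cells cannot be told apart.

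Proteins of this family end in a conserved TSC box followed by a leucine zipper, through which they pair with each other. Several genes of the family make a short protein, with little beyond that carboxy-terminal part, and a long protein with a large amino-terminal extension from a separate start. The short product of Tsc22d1, TSC-22, was first isolated from MC3T3-E1 cells as a transcript stimulated by TGF-beta1. Tsc22d3 encodes GILZ, the glucocorticoid-induced leucine zipper, which binds NF-kB and AP-1 proteins and, in mesenchymal cells, favours osteoblast over fat cell formation. The PTH receptor of osteoblasts signals mainly through Gs, cyclic AMP and protein kinase A. Long family proteins bind the pseudokinase NRBP1 and WNK kinases, which control ion transport and cell volume.

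The transcripts differ in where they start, and the map below gives their exons. Tsc22d1 (ENSMUSG00000022010) lies on chromosome 14 from 76414961 to 76507765, plus strand, in mm10. Its long transcript Tsc22d1-202 starts at 76415587 and has 1077 coding codons in 3 exons. Its short transcript Tsc22d1-201 starts 88.9 kb further on, at 76504478, and has 143 codons in 3 exons. Both use the same second exon and, but for its last few bases, the same last exon, and they share 304 coding bases, which cover most of the 429 of the short form and a small part of the 3231 of the long form. Tsc22d1-204 starts at 76414961 with 995 codons, all of whose bases are also coding in Tsc22d1-202.

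**Figure D1:**
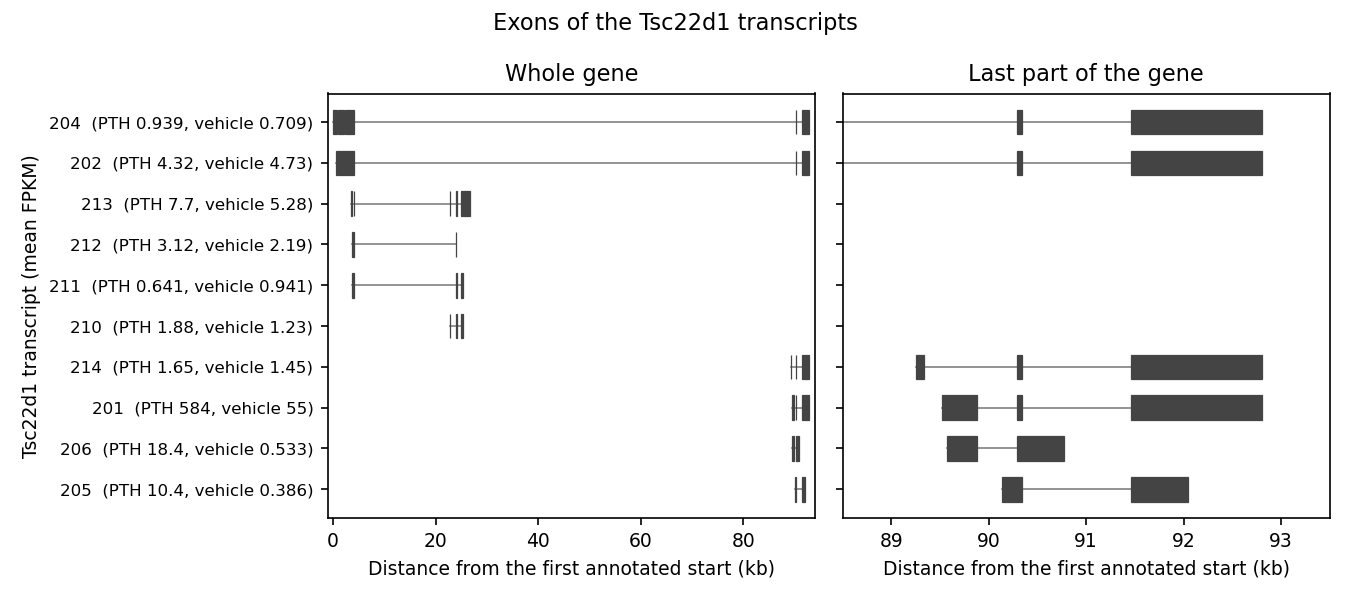
Exons (boxes) and introns (lines) of the 10 Tsc22d1 transcripts in the table, against the distance in kb from the first annotated start, for the whole gene (left) and for its last part (right); the row labels give mean FPKM in the PTH and the vehicle libraries. Transcripts Tsc22d1-201, Tsc22d1-205, Tsc22d1-206 and Tsc22d1-214 start in the last part of the gene, and Tsc22d1-210 to Tsc22d1-213 end before it.

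Of the other Tsc22d1 transcripts, Tsc22d1-211, Tsc22d1-212 and Tsc22d1-213 start within the first exon of Tsc22d1-202 and are annotated with an incomplete start, and Tsc22d1-210 starts at 76437766. All of these end inside the long first intron of Tsc22d1-202. The transcripts Tsc22d1-205 and Tsc22d1-206 lie within the short form and keep part of an intron: Tsc22d1-206 starts 52 bases and Tsc22d1-205 starts 620 bases after Tsc22d1-201. Tsc22d1-214 starts 264 bases before Tsc22d1-201, with a first exon of its own and 86 codons. Cufflinks divides reads of shared exons between such overlapping transcripts, so levels of the minor transcripts carry an error that the spread between libraries does not show. No exon of another annotated gene lies within the 4 genes.

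The 300-base windows around RefSeq starts near these transcripts are shown because the short and the long forms of Tsc22d1, whose values differ, begin there. Each runs from 250 bases before to 50 bases after a start in the GRCm38.p6 table of RefSeq promoters, on the strand of the gene, and capitals mark TGACG, the core of the cyclic AMP response element (CRE). The first belongs to the short form (Tsc22d1-201 starts 32 bases before the RefSeq start of this window), the second to Tsc22d1-214, the third to the long form Tsc22d1-202, which starts 234 bases before the RefSeq start, and the last to Tsc22d3-202.
Tsc22d1 short form, chr14:76504260-76504559, plus strand: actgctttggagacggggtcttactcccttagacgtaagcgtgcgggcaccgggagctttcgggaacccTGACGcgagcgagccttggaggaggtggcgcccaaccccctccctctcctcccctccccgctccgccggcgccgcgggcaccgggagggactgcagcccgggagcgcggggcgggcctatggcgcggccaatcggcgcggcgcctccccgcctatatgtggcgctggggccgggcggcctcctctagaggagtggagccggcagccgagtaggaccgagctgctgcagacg
Tsc22d1-214, chr14:76503976-76504275, plus strand: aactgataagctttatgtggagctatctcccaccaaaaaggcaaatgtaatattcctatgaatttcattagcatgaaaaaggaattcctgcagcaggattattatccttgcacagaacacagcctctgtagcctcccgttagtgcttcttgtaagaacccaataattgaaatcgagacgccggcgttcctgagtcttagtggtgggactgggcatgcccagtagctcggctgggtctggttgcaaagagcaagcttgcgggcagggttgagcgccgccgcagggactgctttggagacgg
Tsc22d1 long form, chr14:76415571-76415870, plus strand: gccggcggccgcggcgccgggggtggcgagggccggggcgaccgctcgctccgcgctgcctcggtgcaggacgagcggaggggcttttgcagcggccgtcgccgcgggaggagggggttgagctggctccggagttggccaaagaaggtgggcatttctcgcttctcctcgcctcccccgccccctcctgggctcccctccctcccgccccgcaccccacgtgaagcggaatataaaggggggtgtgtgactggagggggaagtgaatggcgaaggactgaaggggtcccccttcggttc
Tsc22d3-202, chrX:140542619-140542918, minus strand: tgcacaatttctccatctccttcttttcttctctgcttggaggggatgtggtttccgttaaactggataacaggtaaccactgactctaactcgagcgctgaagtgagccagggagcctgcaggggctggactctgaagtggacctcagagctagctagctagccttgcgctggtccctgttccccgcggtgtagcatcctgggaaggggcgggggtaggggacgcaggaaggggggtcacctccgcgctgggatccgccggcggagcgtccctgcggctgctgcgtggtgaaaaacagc

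Of the 4 windows, that of the short form alone holds TGACG, at position -181 from the RefSeq start. The long-form window begins at 76415571, and nearly all of it lies after the start of Tsc22d1-202 at 76415587, in its first exon. Most of the short-form window lies before the start of Tsc22d1-201, so these windows cover unlike stretches and are not compared. Over all 8 windows that the table has for Tsc22d1 (5) and Tsc22d3 (3), TGACG on either strand was found in 2, the other being a Tsc22d3 window that holds the start of none of its listed transcripts. Among all 32851 windows of the table, 20.8% hold TGACG or its complement CGTCA. The full CRE (TGACGTCA, which contains TGACG; 1.79% of all windows), the AP-1 site TGANTCA (7.81%), the forkhead site GTAAACA or its complement TGTTTAC (3.65%) and the glucocorticoid response element (GRE; 0.00913%) were found in none of the 8. No window holds the start of Tsc22d3-201, the usual GILZ form, at 140543187, so the sequence around that start was not searched. The windows of the short and the long form are rich in G and C (72.7% and 71.7%), against 49.7% for Tsc22d1-214 and a median of 52.7% over all windows. These matches describe letters only. No window was matched for Tsc22d2 and Tsc22d4.

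At the level of whole genes, Tsc22d1 stood far higher with PTH, Tsc22d4 and Tsc22d2 stood lower, and Tsc22d3 overlapped between the groups. Levels are in FPKM, an estimate of fragments scaled by transcript length and library depth, summed over the transcripts of a gene. Tsc22d1 had 574.4, 646.8 and 678.7 FPKM in the PTH libraries 1 to 3, against 67.2, 74.4 and 75.8 FPKM in the vehicle libraries. Every PTH library lay far above every vehicle library, and within each group library 1 was the lowest. The means were 633.3 ± 53.5 FPKM with PTH and 72.5 ± 4.59 FPKM with vehicle (SD, n = 3 each), a ratio of 8.74. Differences are given as log2(FPKM + 0.5), where the added 0.5 shrinks those of weakly expressed genes. Here the difference was 3.12 (SE 0.08, from limma), which ranked 51 among the 11628 genes with a mean of at least 1 FPKM.

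Tsc22d4 (ENSMUSG00000029723; chromosome 5, 137745730 to 137768450, plus strand), which encodes the protein also called THG-1, had 15.6, 13.2 and 15.2 FPKM with PTH, against 23.1, 20.8 and 25.5 FPKM with vehicle. All PTH libraries were below all vehicle libraries, and the log2 difference was -0.63 (SE 0.09). Tsc22d2 (ENSMUSG00000027806; chromosome 3, 58414715 to 58466783, plus strand), the least abundant member, had 7.15, 6.85 and 7.51 FPKM with PTH, against 10.2, 9.23 and 10.2 FPKM with vehicle, again with no overlap. Its log2 difference was -0.44 (SE 0.06). These small differences depend on the scale more than that of Tsc22d1. All tested genes together had a median log2 difference of -0.15. Setting the medians of the libraries equal raised every value by 0.12, which left -0.51 for Tsc22d4 and -0.31 for Tsc22d2. After cyclic loess, the values were -0.49 for Tsc22d4 and -0.22 for Tsc22d2.

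Tsc22d3 (ENSMUSG00000031431; chromosome X, 140539528 to 140600659, minus strand) had 29.1, 36.0 and 39.4 FPKM with PTH, against 24.6, 34.7 and 37.2 FPKM with vehicle. The groups overlapped, and library 1 was the lowest in both. The log2 difference of 0.12 (SE 0.18) was smaller than its error, and without vehicle library 1 it was -0.06. Between libraries of the same number, the PTH library was higher each time, by 0.24, 0.05 and 0.08 on the log2 scale for numbers 1, 2 and 3, and with the number as a block the SE of the difference was 0.05. Of the 4 genes, 1 lay wholly above vehicle and 2 wholly below. Over the 11628 genes, 13.1% lay wholly above and 47.5% wholly below, and since the members were chosen on this contrast nothing is read from the comparison.

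**Figure D2:**
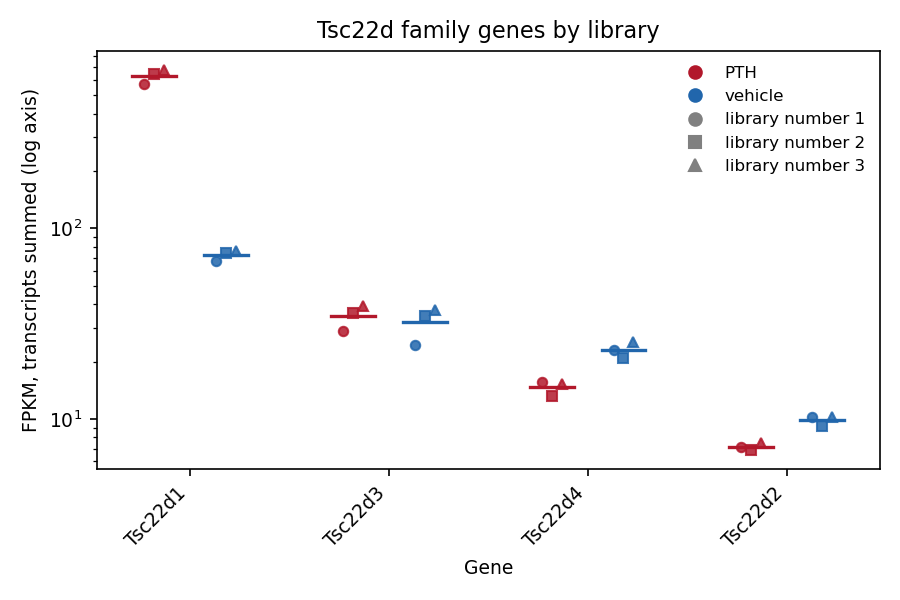
Summed FPKM (log axis) of the 4 genes in the 3 PTH (red, left) and 3 vehicle (blue, right) libraries, with symbols for library numbers and lines at the group means. Tsc22d1 is at 574.4 to 678.7 FPKM with PTH and 67.2 to 75.8 FPKM with vehicle, the groups overlap for Tsc22d3, and both other genes are lower with PTH.

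The order of the levels was Tsc22d1, Tsc22d3, Tsc22d4 and Tsc22d2 in each of the 6 libraries. With PTH the ranges of neighbours in this order did not overlap. With vehicle the ranges of Tsc22d3 (24.6 to 37.2 FPKM) and Tsc22d4 (20.8 to 25.5 FPKM) overlapped, so those neighbours were not separated by the spread between libraries. Tsc22d1 made up 91.8% ± 0.212 of the summed FPKM of the family with PTH and 52.7% ± 1.53 with vehicle (SD, n = 3 each). Tsc22d3 held 5.03% ± 0.344 with PTH and 23.2% ± 3.09 with vehicle (SD, n = 3 each).

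The difference in Tsc22d1 lay in the short form, which encodes TSC-22. Tsc22d1-201 had 532.1, 595.9 and 624.9 FPKM with PTH, against 50.9, 57.6 and 56.5 FPKM with vehicle. The means of 584.3 ± 47.5 and 55.0 ± 3.59 FPKM (SD, n = 3 each) for PTH and vehicle stand in a ratio of 10.6, and the log2 difference was 3.40 (SE 0.08). Ordered by mean FPKM among the 37478 transcripts, it ranked 113 with PTH and 1145 with vehicle.

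The long form differed little. Tsc22d1-202, whose protein carries the amino-terminal extension, had 4.23, 4.28 and 4.44 FPKM with PTH, against 4.20, 4.72 and 5.28 FPKM with vehicle. The groups overlapped, and the log2 difference was -0.11 (SE 0.09). Tsc22d1-204, the other transcript that runs from the distal start to the last exon, had 0.702, 0.911 and 1.21 FPKM with PTH, against 0.464, 0.825 and 0.839 FPKM with vehicle, also with overlap. The short form exceeded the long form Tsc22d1-202 by 135.2 ± 8.16 times with PTH and by 11.7 ± 0.847 times with vehicle (SD, n = 3 each).

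The transcripts inside the short form that keep intron sequence were under 1 FPKM with vehicle and far higher with PTH. Tsc22d1-206 had 15.9, 20.6 and 18.7 FPKM with PTH, against 0.461, 0.381 and 0.756 FPKM with vehicle. Tsc22d1-205 had 7.23, 11.3 and 12.7 FPKM with PTH, against 0.409, 0.294 and 0.456 FPKM with vehicle. Both sets were wholly separate, with log2 differences of 4.20 (SE 0.16) for Tsc22d1-206 and 3.59 (SE 0.21) for Tsc22d1-205. For each 100 FPKM of Tsc22d1-201, Tsc22d1-205 and Tsc22d1-206 together held 4.35, 5.35 and 5.01 FPKM with PTH, against 1.71, 1.17 and 2.14 FPKM with vehicle. The ratio of these intron-keeping forms to the spliced short form was higher in every PTH library than in every vehicle library, with vehicle levels of both transcripts under 1 FPKM in every library.

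Tsc22d1-214, whose start lies 264 bases before that of the short form, had 1.77, 2.02 and 1.15 FPKM with PTH, against 2.11, 1.26 and 0.984 FPKM with vehicle, with overlapping groups. The internal starts together (Tsc22d1-201, Tsc22d1-205, Tsc22d1-206 and Tsc22d1-214) summed to 614.7 ± 51.8 FPKM with PTH and 57.4 ± 3.05 FPKM with vehicle (SD, n = 3 each). The 6 transcripts with distal starts summed to 17.4, 17.0 and 21.4 FPKM with PTH, against 13.3, 14.8 and 17.1 FPKM with vehicle. In that distal sum PTH library 2 lay just below vehicle library 3, so the groups overlapped. Between libraries of the same number, the PTH library was the higher in all 3.

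Within the distal group, only Tsc22d1-213 was separate between the groups. It is annotated as a target of nonsense-mediated decay and ends inside the first intron of the long form, and it had 7.34, 7.25 and 8.50 FPKM with PTH, against 4.78, 5.17 and 5.89 FPKM with vehicle (log2 difference 0.51, SE 0.10). The 4 short distal transcripts Tsc22d1-210 to Tsc22d1-213 summed to 13.3 ± 2.10 FPKM with PTH and 9.64 ± 1.19 FPKM with vehicle (SD, n = 3 each). By contrast, the sum of Tsc22d1-202 and Tsc22d1-204 was 5.26 ± 0.362 FPKM with PTH and 5.44 ± 0.734 FPKM with vehicle (SD, n = 3 each). Transcripts Tsc22d1-210, Tsc22d1-211 and Tsc22d1-212 each overlapped between groups, with means between 0.641 and 3.12 FPKM with PTH and between 0.941 and 2.19 FPKM with vehicle. Between libraries of the same number, Tsc22d1-204, Tsc22d1-210, Tsc22d1-212 and Tsc22d1-213 were higher with PTH in all 3, and Tsc22d1-202 and Tsc22d1-211 were not.

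**Figure D3:**
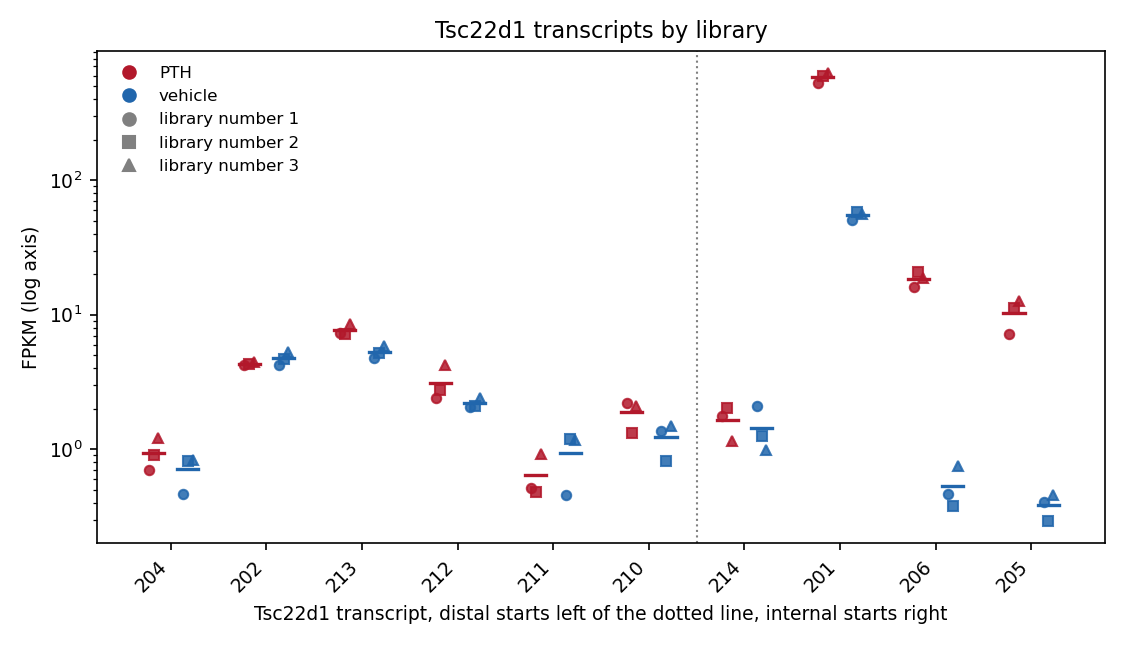
FPKM (log axis) of the 10 Tsc22d1 transcripts in the PTH (red, left) and vehicle (blue, right) libraries, with symbols for library numbers and lines at the group means; the dotted line separates distal from internal starts. Transcripts Tsc22d1-201, Tsc22d1-205 and Tsc22d1-206 are well above vehicle with PTH, Tsc22d1-213 slightly so, and the groups overlap for the other 6.

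As shares of the gene, all 10 Tsc22d1 transcripts were separate between groups, 3 with a higher share with PTH and 7 with a lower one. Shares of a gene sum to 100%, so a large difference in one form moves the shares of the others. Tsc22d1-201 made up 92.6%, 92.1% and 92.1% of the gene's FPKM with PTH, against 75.7%, 77.5% and 74.6% with vehicle, a difference of 16.3 percentage points. Tsc22d1-202 made up 0.684% ± 0.0451 with PTH and 6.52% ± 0.391 with vehicle (SD, n = 3 each), and Tsc22d1-213 made up 1.22% ± 0.0846 with PTH and 7.27% ± 0.431 with vehicle. Among the 7141 tested genes with at least 2 transcripts, 7.21% had a transcript whose share shifted by at least 10 points with no overlap between groups. Tsc22d1 is counted among them, and nothing is read from this, since its isoforms were chosen on the same contrast.

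Tsc22d3 had a comparable division of starts with smaller differences. Its short transcript Tsc22d3-201 (137 codons, the usual GILZ form) had 26.1, 32.1 and 34.4 FPKM with PTH, against 19.1, 29.3 and 29.7 FPKM with vehicle. These groups overlapped, with a log2 difference of 0.26 (SE 0.19). Between libraries of the same number, the PTH library was higher each time. The long transcript Tsc22d3-203, which starts 57.5 kb upstream and has 603 coding bases, had 1.23, 1.84 and 2.20 FPKM with PTH, against 1.55, 2.88 and 2.23 FPKM with vehicle, also with overlap. As a share of the gene it held 4.98% ± 0.681 with PTH and 6.87% ± 1.24 with vehicle (SD, n = 3 each), without overlap. At each library number its FPKM was lower with PTH. Tsc22d3-203 shares 289 coding bases with Tsc22d3-201.

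The separate transcript was Tsc22d3-202, a processed transcript without an annotated coding part whose start and promoter window are given above. It had 1.19, 1.13 and 0.900 FPKM with PTH, against 3.49, 1.81 and 4.34 FPKM with vehicle. All PTH libraries were lower, by 1.18 on the log2 scale (SE 0.27), and the vehicle libraries varied among themselves more than the PTH libraries did. As a share of the gene, Tsc22d3-202 held 3.17% ± 0.909 with PTH and 10.4% ± 4.63 with vehicle, and Tsc22d3-201 held 88.8% ± 1.27 with PTH and 80.7% ± 3.51 with vehicle (SD, n = 3 each). The intron-keeping Tsc22d3-205 was at 1.12 ± 0.694 FPKM with PTH and 0.684 ± 0.287 FPKM with vehicle (SD, n = 3 each). Its groups overlapped, though at each library number it was higher with PTH.

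The lower level of Tsc22d4 lay in its more abundant transcripts. Tsc22d4-202 (387 codons) had 5.98, 5.61 and 5.45 FPKM with PTH, against 8.43, 7.12 and 8.14 FPKM with vehicle. Tsc22d4-209, a short model with an incomplete start and 96 codons, had 6.23, 5.76 and 5.77 FPKM with PTH, against 9.87, 10.0 and 10.8 FPKM with vehicle. Neither overlapped between groups, with log2 differences of -0.44 (SE 0.08) for Tsc22d4-202 and -0.74 (SE 0.07) for Tsc22d4-209. The longest form, Tsc22d4-203 with 509 codons, was at 1.09 ± 0.153 FPKM with PTH and 1.07 ± 0.0818 FPKM with vehicle (SD, n = 3 each). Its share of the gene was higher, at 7.43% ± 1.22 with PTH and 4.67% ± 0.680 with vehicle (SD, n = 3 each), without overlap.

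The remaining Tsc22d4 transcripts were low. The intron-keeping Tsc22d4-206 and Tsc22d4-207 overlapped between groups. Tsc22d4-206 had 0.986 ± 0.343 FPKM with PTH and 1.79 ± 0.550 FPKM with vehicle (SD, n = 3 each). Tsc22d4-207 had 0.807 ± 0.858 FPKM with PTH and 1.78 ± 0.961 FPKM with vehicle (SD, n = 3 each), and was listed at essentially 0 in PTH library 2. Between libraries of the same number, both were lower with PTH each time. Tsc22d4-205 stood at 0.216 ± 0.0720 FPKM with PTH and 0.354 ± 0.0477 FPKM with vehicle (SD, n = 3 each), and was the only member transcript under the minimum mean of 0.5 FPKM. Tsc22d2 has 1 transcript in the table, so its isoforms cannot be compared. It codes for 769 codons and is a long form.

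Of the 20 member transcripts with a mean of at least 0.5 FPKM, 4 lay wholly above vehicle with PTH, all of Tsc22d1, and 4 lay wholly below, 1 of Tsc22d2, 1 of Tsc22d3 and 2 of Tsc22d4. Tsc22d4-205, under that minimum, also lay wholly below. Over all 28055 transcripts past the same minimum, 11.3% lay wholly above and 32.1% wholly below, and nothing is read from the comparison.

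**Figure D4:**
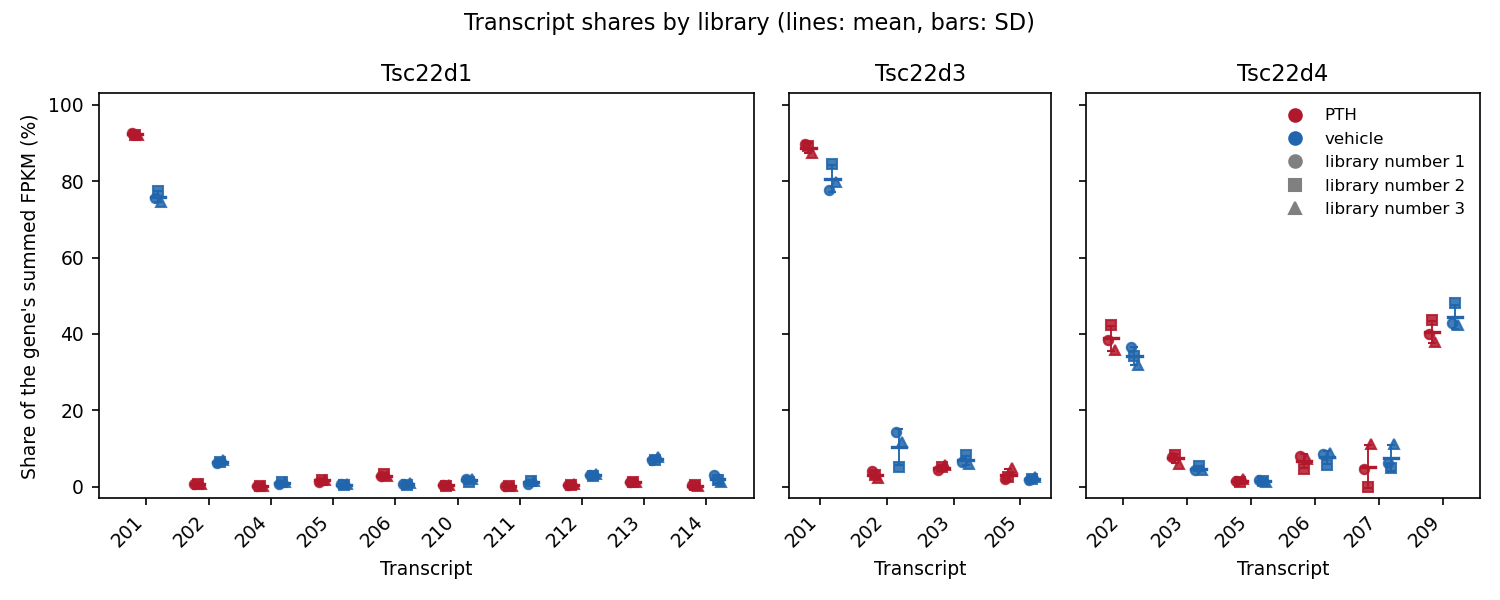
Share of each gene's summed FPKM (percent) held by each transcript of Tsc22d1, Tsc22d3 and Tsc22d4 in the PTH (red, left) and vehicle (blue, right) libraries, with symbols for library numbers, lines at the means and bars of 1 SD. Tsc22d1-201 holds 92.1% to 92.6% with PTH and 74.6% to 77.5% with vehicle, while the Tsc22d4 shares mostly overlap.

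By profile over the 6 libraries, the genes nearest to Tsc22d1 were Nfil3, Phlda1 and Cebpb. Likeness was the Euclidean distance between log2(FPKM + 0.5) values taken relative to the vehicle mean. It was 0.304, 0.326 and 0.329 for these genes, against a median of 5.67 over all genes. Such a distance depends largely on the size of the PTH difference, the contrast on which the members were chosen. Nearness therefore mostly means a difference of like size, and nothing more is read from it. Nfil3, a bZIP repressor, had a log2 difference of 3.27, Phlda1, a pleckstrin homology-like domain gene, 3.21, and Cebpb, a bZIP activator, 3.14. The nearest to Tsc22d4 were Efnb1 (distance 0.0824), an ephrin ligand, Rpusd4 (0.0880) and Mbd6 (0.104), against a median of 0.920. The nearest to Tsc22d2 were Nelfcd (0.0637), Vps52 (0.0717) and AI597479 (0.0800), against a median of 0.614. The nearest to Tsc22d3 were Akap7 (0.154), an anchoring protein of protein kinase A, Ehd3 (0.171) and Fetub (0.177), against a median of 0.836.

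Genes around the family were tested with limma over all 11628 genes. Of these, 10.8% rose (1252) and 41.0% fell (4765) with PTH as deposited, and 2131 rose and 2792 fell with centred libraries. The lists were chosen with earlier results of these data known. Their counts and medians are therefore descriptions, and nothing is read from setting them beside those of all genes. Of the WNK and NRBP1 partners and the cation-chloride cotransporters they control, 1 of 11 tested genes rose and 6 fell. With centred libraries 1 rose and none fell, and none fell as TPM or after cyclic loess either. With centred libraries and the library number as a block, 3 rose and 3 fell. Without single libraries between 2 and 5 fell. The number was 5 without vehicle 1, 2 without vehicle 2, 4 without vehicle 3, PTH 1 or PTH 2, and 3 without PTH 3. Slc12a2, which encodes the sodium-potassium-chloride cotransporter NKCC1, rose to 34.9 ± 2.27 FPKM with PTH, against 10.4 ± 0.607 FPKM with vehicle (SD, n = 3 each), a log2 difference of 1.70 with an SE of 0.07 and an adjusted p of 9.5e-06 by limma. Among the falls, all small, were those of Nrbp2 (-0.39), the potassium-chloride cotransporter gene Slc12a4 (-0.28), the kinase gene Oxsr1 (-0.21), and Nrbp1 and Cab39l (-0.20 each). Wnk1, the most abundant of the tested kinase genes, stood at 76.2 ± 3.00 FPKM with PTH and 75.8 ± 5.20 FPKM with vehicle (SD, n = 3 each) and did not pass (limma adjusted p = 0.922). With the library number as a block 7 fell, the added gene being Slc12a7 (-0.36, adjusted p = 0.0897 by limma without the block and 0.00148 with it). The list's median log2 difference was -0.20, against -0.15 over all genes.

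Of the glucocorticoid receptor gene and 16 tested genes that the receptor is known to induce, 12 rose and 3 fell, with 12 and 2 in centred libraries, 12 and 1 after cyclic loess and 13 and 1 as TPM. The receptor gene itself, Nr3c1, fell to 2.33 ± 0.504 FPKM with PTH, against 3.68 ± 0.294 FPKM with vehicle (SD, n = 3 each), a log2 difference of -0.57 with an SE of 0.13 and an adjusted p of 0.0108 by limma. Fkbp5, which encodes a co-chaperone that restrains the receptor, fell by 0.49 and Nfkbia, which encodes an inhibitor of NF-kB, by 0.47. The Nfkbia call was lost with centred libraries (limma adjusted p = 0.0557), after cyclic loess (0.0563) and as TPM (0.166). That of Nr3c1 was lost after cyclic loess (limma adjusted p = 0.112) and that of Fkbp5 as TPM (limma adjusted p = 0.136). Sgk1, a kinase that regulates ion channels, rose to 54.8 ± 3.76 FPKM with PTH, against 12.1 ± 0.791 FPKM with vehicle (SD, n = 3 each), a log2 difference of 2.13 with an SE of 0.07 and an adjusted p of 4.2e-06 by limma. Pdk4, an inhibitor of pyruvate dehydrogenase, rose by 2.46, the metallothionein genes Mt2 and Mt1 by 2.07 and 1.67, Klf9, a Krüppel-like factor, by 0.62 and Cdkn1a, a cell cycle inhibitor, by 0.58. The other rises were in Dusp1 (4.83), Rgs2 (4.73), Cebpd (3.41), Errfi1 (2.64), Per1 (2.52) and Ddit4 (2.42), several of which are also known to respond to cyclic AMP. Lcn2 stood at 0.52 (SE 0.59) and did not pass (limma adjusted p = 0.493), but did with the block (0.00523) and as TPM (0.0200). As TPM the SEs of the 4 members were nearly alike (0.185 to 0.192). A call gained or lost as TPM may therefore not follow a gene's own spread. With the block and centred libraries together, 13 rose and 3 fell. The list's median, with the receptor gene included, was 2.07. Tsc22d3, the glucocorticoid-induced member of the family, stood at 0.12 (SE 0.18, or 0.05 with the block). Nothing is read from setting it beside the list.

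Among 6 tested genes of proteins that GILZ is known to bind or restrain, 2 rose and 2 fell, with 2 and 1 in centred libraries, 3 and 2 after cyclic loess and 3 and 0 as TPM. Fos, an AP-1 subunit, rose by 5.68 and Nfkb1, an NF-kB subunit, by 0.46, while Trp53 fell by 0.51, a call that was lost as TPM (limma adjusted p = 0.104). Rela was at 29.9 ± 1.75 FPKM with PTH and 28.9 ± 2.01 FPKM with vehicle (SD, n = 3 each). Jun, an AP-1 subunit, stood at 0.59 and did not pass (limma adjusted p = 0.0845), but did with the block (0.00789), after cyclic loess (0.0425) and as TPM (0.00217). The limit given above for calls as TPM holds here too. With the block and centred libraries together, 4 rose and 2 fell. The list's median was 0.25.

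Of 11 tested TGF-beta ligands, receptors and Smads, 6 rose and 1 fell, with 9 and 0 in centred libraries and after cyclic loess, 6 and 0 as TPM, and 8 and 2 with the library number as a block. Smad3, a transducer of TGF-beta signals, rose to 95.9 ± 4.16 FPKM with PTH, against 28.7 ± 4.82 FPKM with vehicle (SD, n = 3 each), a log2 difference of 1.73 with an SE of 0.12 and an adjusted p of 8.2e-05 by limma. The inhibitory Smad genes Smad6 and Smad7 rose by 1.41 and 0.93, the receptor gene Tgfbr2 by 0.79, and the ligand genes Tgfb3 and Tgfb2 by 0.64 and 0.58. Smad2 fell by 0.25 and was not called in centred libraries (limma adjusted p = 0.0838), after cyclic loess (0.122) or as TPM (0.719). Tgfb1, the ligand for which TSC-22 was named, was at 23.0 ± 1.16 FPKM with PTH and 19.1 ± 2.49 FPKM with vehicle (SD, n = 3 each), with limma adjusted p = 0.0568 as deposited, 0.0189 with centred libraries and 0.00739 with the block. The other calls added by the block were Tgfbr3 (0.22, adjusted p = 0.0135 by limma) and Smad4 (-0.15, adjusted p = 0.0221 by limma). With the block and centred libraries together, 9 rose and 1 fell. The list's median was 0.58.

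**Figure D5:**
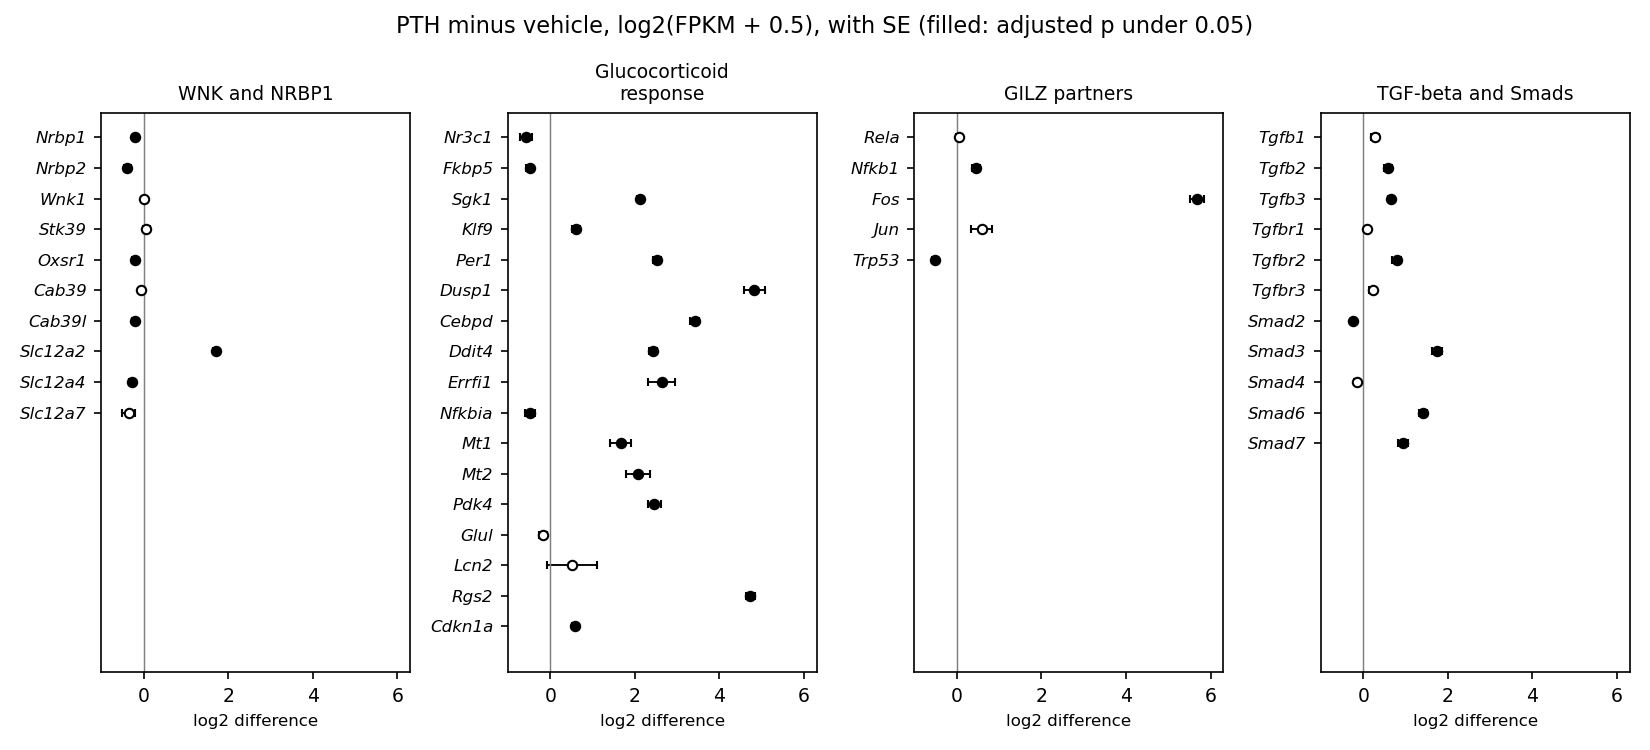
Log2 difference, PTH minus vehicle, on the log2(FPKM + 0.5) scale with its SE for tested genes of 4 lists, those not reported by name left out; filled points passed limma at an adjusted p under 0.05. Of 17 genes in the glucocorticoid list 12 passed as higher with PTH, and of 11 in the WNK and NRBP1 list Slc12a2 alone did.

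As to the cells, all 6 osteoblast markers were measured, with summed levels of 831.4 to 943.6 FPKM with PTH and 810.9 to 894.7 FPKM with vehicle. Of 4 leukocyte markers, Cd68 and Lyz2 had a row and summed to 6.64 to 11.5 FPKM with PTH and 6.97 to 13.0 FPKM with vehicle. Of 3 chondrocyte markers Col2a1 had a row, at 1.83 to 6.27 FPKM with PTH and 0.959 to 3.76 FPKM with vehicle. Of 4 adipocyte markers Fabp4 had a row, under 1 FPKM in every library, and none of the muscle or endothelial markers had a row. The part of these levels in the results was not tested. The FPKM totals of the libraries ranged from 618221 to 853916, and the number of reads behind a value is unknown.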

How the data were processed

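Per the labels' protocols, the RNA was sequenced after a stranded mRNA preparation and the authors estimated transcript abundance with Cufflinks; the deposited values are FPKM per transcript. The submitters' processing notes name mm10. No aligner, tool version, annotation release or strand setting is stated in the sources used here. The authors' comparison columns were not used.

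Transcript FPKM were summed per symbol and transformed as log2(FPKM + 0.5). limma 3.58.1 (R 4.3.3; lmFit, eBayes with trend) compared PTH with vehicle for genes with a mean of at least 1 FPKM and transcripts of at least 0.5 FPKM, two-sided, with Benjamini-Hochberg adjustment over all tested features and a threshold of 0.05. The test was also run on simulated data with independent noise and no effect of library number or scale. That run therefore cannot check how the calls depend on either. Members' SEs come from these fits. Structures are from GENCODE M21 (GRCm38, the assembly of mm10), where all 21 transcripts were found; promoter sequences are from RefSeq. Other steps used pandas 2.3.3 under Python 3.11.15, and figures were drawn in matplotlib 3.10.9.

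The members and lists were chosen with earlier results of these data known. Named genes are the members, every listed gene that passed (but for some counted with their list and not reported here by name), a few that did not, chosen after their values were seen, and the 3 nearest profiles per member, without Gm, Rik, Mir, Snor and date-like symbols. Listed genes without a row in the table were not analysed here. Alternatives were the added constant, the filter, the scale, the block and each library left out. Same-numbered libraries deviated together from their group means (correlations of 0.422, 0.275 and 0.285 over 11628 genes). Correlations for libraries of unlike numbers were below 0, which follows in part from taking deviations from group means. The main fits have no block, so their SEs and adjusted p-values do not use a pairing by number. A block on the number was run as an alternative. FPKM hold no depth, so no counting interval is given.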

Additional observations from a re-analysis of the deposited data

How the results depend on the processing

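The direction of the difference of Tsc22d1, Tsc22d2 and Tsc22d4 was the same under every alternative run. The log2 difference of Tsc22d1 was 3.24 with centred libraries, with or without the replicate block, and 3.40 with only its highest transcript. That of Tsc22d2 was -0.31 with centred libraries, with or without the replicate block, -0.36 as TPM and -0.22 with cyclic loess, and that of Tsc22d4 was -0.49 with cyclic loess. That of Tsc22d3 turned to -0.06 without vehicle library 1. Without single libraries the log2 differences ran from 3.06 to 3.19 for Tsc22d1, -0.49 to -0.41 for Tsc22d2, -0.06 to 0.25 for Tsc22d3 and -0.71 to -0.56 for Tsc22d4. The replicate block left these differences as they were and changed their SEs. It called 1605 genes higher and 5811 lower, and 2175 transcripts higher and 5592 lower, and among listed genes it changed no call but the 6 named above.

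The counts over all features depended on the scale, and as TPM the SEs differed as well. For Tsc22d1 to Tsc22d4 the SEs as TPM were 0.192, 0.185, 0.189 and 0.187, against 0.076, 0.062, 0.175 and 0.093 as deposited. The log2 differences as TPM were 3.21, -0.36, 0.22 and -0.55, against 3.12, -0.44, 0.12 and -0.63. The part of the SEs in the counts as TPM was not tested. Genes that rose numbered 2131 with centred libraries, 2345 with cyclic loess and 2890 with the replicate block and centring, but 860 as TPM, against 1252 as deposited. Genes that fell numbered 2792 with centred libraries, 1158 as TPM and 2051 with cyclic loess, against 4765. Transcripts that rose numbered 1142 at a minimum of 5 FPKM, 1274 as TPM and 3270 with the replicate block and centring, against 1973. Transcripts that fell numbered 2861 at a minimum of 5 FPKM, 2459 with centred libraries, 886 as TPM, 2298 with cyclic loess and 2645 with the replicate block and centring, against 5238, and between 2964 and 3916 without single libraries. Listed genes that fell numbered 3 with centred libraries, 1 as TPM and 3 with cyclic loess, against 12 as deposited. They numbered 14 with the replicate block and 9 with the replicate block and centring. The cause was not tested. The share difference of Tsc22d1-201 ran from 15.7 to 17.1 points without single libraries, and those of Tsc22d4-205 (without PTH 2 or vehicle 1) and Tsc22d4-207 (without PTH 2) changed sign. FPKM give no depth, so the counting error of levels under 1 FPKM is unknown.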
